A study of Mus musculus with 8 samples.

Results

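DNA methylation, Polycomb and Trithorax regulators were followed in common myeloid progenitors (CMPs) of young and old mice. The 39 genes were taken by name: DNA methyltransferases and TET dioxygenases, subunits of the Polycomb repressive complexes PRC1 and PRC2, the deubiquitinase that opposes PRC1, core subunits of Trithorax (COMPASS) complexes, and a few further histone-modifying enzymes. Every non-control probe carrying 1 of these gene names was used, 67 of the 55681 probes on the array, and all 39 genes were found. Of the 67 probes, 64 passed the filter on dim signals (4 or more of the 8 arrays well above background), and every gene kept at least 1 tested probe. The probes left out were 1 each of Phc2, Cbx7 and Phf1.

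The cells came from untreated wildtype C57BL/6J mice of both sexes kept in a pathogen-free environment, with no transgene, deletion or agent in either group. They were sorted from bone marrow as lineage-negative, cKit+, Sca-1-, CD34+ cells with low Fcγ receptor. Young mice were 2 to 3 months old by the sample labels and 3 to 4 months by the series description, and old mice were 22 to 24 months and 22 to 26 months, respectively. The study's methods speak of individually analysed mice but count 1 mouse fewer per age than there are arrays, and no label ties an array to an animal. Whether arrays of an age share a mouse is therefore unknown, and p-values below measure the spread between arrays. There were 4 young arrays (replicates 3 to 6) and 4 old arrays (replicates 2 to 5), each hybridised with a single dye, on 2 slides that held 2 young and 2 old arrays each. Young replicates 3 and 4 and old replicates 2 and 4 shared slide 1, and the other 4 arrays shared slide 2.

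Between 55.6% and 63.2% of probes were well above background on a young array and between 57.3% and 60.5% on an old one, no spot was saturated, and the arrays correlated with each other at 0.967 to 0.992 over the tested probes. Kit, Cd34, Fcgr3, Fcgr2b and Flt3, transcripts of surface proteins that CMPs carry, were well above background on all 8 arrays, and so was Ly6a, which encodes the Sca-1 protein that the sort excluded. Of these 6 genes 5 were lower in old CMPs (median log2 fold change -0.42), and none had an adjusted p under 0.05 by limma. Ly6a was between -0.35 and 0.03 on young arrays and between -1.38 and -0.43 on old ones, without overlap (-0.73, adjusted p = 0.414 by limma), and Flt3 was at -0.62 with overlap. Except for sums over marker genes, all levels below are log2 signals relative to the array's 75th percentile, so that 0 is the level of a fairly bright spot. They compare arrays for a given probe and not probes with each other. A log2 fold change is the old mean minus the young mean of this quantity.

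DNA methylation is set at unmethylated sites by Dnmt3a and Dnmt3b and copied after replication by Dnmt1, which Uhrf1 brings to hemimethylated sites. TET enzymes oxidise the methyl group and so begin its removal. PRC2, with Ezh1 or Ezh2 as its catalytic subunit, methylates histone H3 at lysine 27, PRC1 ubiquitinates histone H2A, and both keep developmental genes silent, while Trithorax complexes methylate histone H3 at lysine 4 at active genes. In blood, Dnmt3a, Tet2 and Asxl1 are known as the genes most often mutated in clonal hematopoiesis of older people, and Bmi1 and Ezh2 as regulators of stem cell self-renewal.

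Tet2, Dnmt3l and Ehmt2 were singled out by their values in these data, and none of them passed the test given below. The sequences with which the array read these genes are shown so that each value can be tied to its transcript region. The first 30 bases of each 60-base probe are given, 5′ to 3′, with coordinates of the mm9 build as the array files give them. All 5 probes lie on the strand of their gene. The first 2 Tet2 probes sit close together near the end of the same transcript (positions 9011 and 8857), and the third Tet2 probe, designed on a different cDNA, lies 49611 bases away from the first.
Tet2, the first probe (chr3:133126751-133126810, minus strand): gcttacttcctgagattttggctttgttta
Tet2, the second probe (chr3:133126905-133126964, minus strand): acgcacagtgatgtatagttcactttacaa
Tet2, the third probe (chr3:133176421-133176479, minus strand): gaaaatccgaagaaccccttgtgcctttaa
Dnmt3l (chr10:77526112-77526171, plus strand): atgaaagtctttcctagaaccagggcagat
Ehmt2 (chr17:35050931-35050990, plus strand): gattgaagttgggcctctgccagctgattt

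No regulator passed the test between old and young CMPs. A gene was called if any of its probes had an adjusted p under 0.05 (limma, Benjamini-Hochberg over all 33479 tested probes) and changed at least 1.5-fold, and 0 of the 39 genes were called, against 58 of 23161 tested genes on the array (0.25%; 0.207% higher and 0.0432% lower in old). Counted by probe, 0.191% of tested probes were called. Without adjustment, 2 of the 39 genes had p under 0.05 at their brightest probe, Dnmt3l and Tet2, both lower in old CMPs, where 6.62% of all tested genes did so and 2.66% did so with a lower level. In 2 genes, Dnmt3l and Ehmt2, all old arrays lay below all young arrays, where the groups did not overlap in 4.86% of genes and old lay below young in 1.66%. Over both directions these counts are close to those of the whole array. The methods' t-test without adjustment, with the same fold minimum, called 2 of the 39 genes, Dnmt3l and Tet2, and 1051 of the 33479 tested probes. Its share over all genes was not computed. After adjustment this test called 0 of the 39 genes and 0 probes. In bulk RNA of this kind, fewer cells of a type and less RNA per cell cannot be told apart.

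The log2 fold changes of the regulators were centred near 0. With the brightest probe of each gene, 15 were higher and 24 lower in old CMPs, the median was -0.04, and over all tested genes 52.4% were lower with a median of -0.01. The direction of such small values depended on the scaling: when arrays were scaled to their median instead of the 75th percentile, the median of all genes moved by 0.12 and 26 of the 39 genes were higher and 13 lower. A change of 1.5-fold or more was measured in 2 of the 39 (all genes 8.68%). For 17 of the 39 genes the 95% interval of the fold change at the brightest probe lay within 1.5-fold in either direction (27.6% of all tested genes). For 34 of 39 it lay within 2-fold (75.3%). The 17 were Dnmt3a, Dnmt3b, Uhrf1, Idh1, Ezh2, Jarid2, Bmi1, Rnf2, Asxl1, Wdr5, Ash2l, Rbbp5, Men1, Kdm5b, Dot1l, Setdb1 and Ehmt2. Of these, Dnmt3b, Uhrf1, Bmi1, Kdm5b and Dot1l had another tested probe whose interval reached beyond 1.5-fold, so the bound holds for their brightest probe only. For the other 22 genes the interval at the brightest probe reached beyond 1.5-fold, which the number of arrays left undecided.

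**Figure D1:**
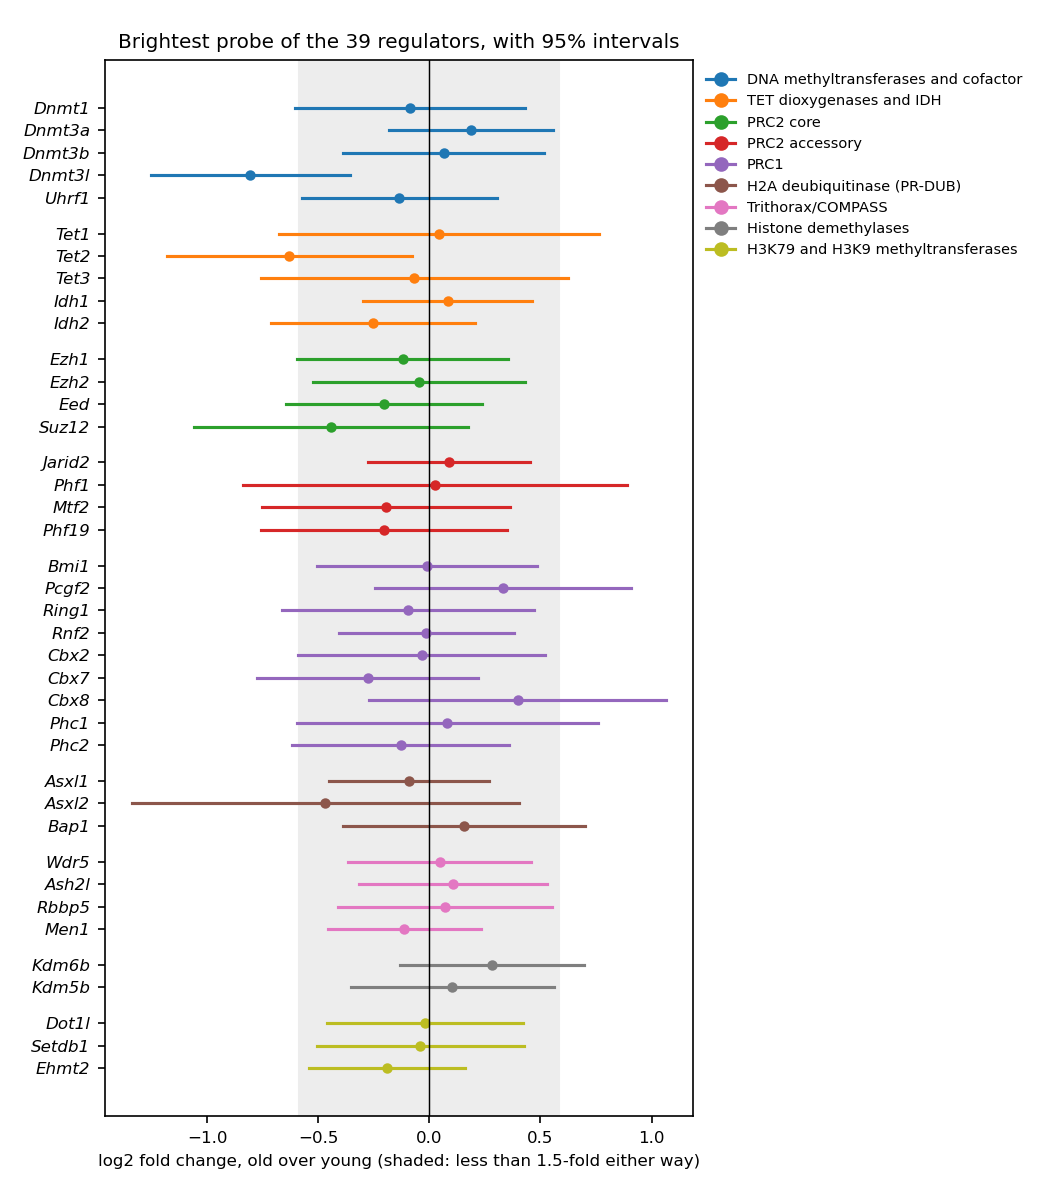
Log2 fold change, old over young, of the brightest probe of each of the 39 regulators (points) with its 95% interval from limma (lines), coloured by role; the shaded band marks less than 1.5-fold in either direction. Dnmt3l (-0.80) and Tet2 (-0.63) lie farthest to the left with intervals that leave out 0, and the 4 Trithorax genes have intervals inside the band.

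Dnmt3l had the largest difference among the regulators. It encodes the catalytically inactive cofactor of the de novo methyltransferases, best known from germ cells and embryos. Young replicates 3 to 6 gave log2 signals of -0.88, -0.73, -0.97 and -0.57, and old replicates 2 to 5 gave -1.15, -1.67, -1.74 and -1.82. The values of each gene are listed in this order throughout. All old arrays lay below all young arrays, and the probe was well above background on all 8. The level was 1.75-fold lower in old CMPs (log2 fold change -0.80 ± 0.20 SE, 95% interval -1.25 to -0.36), with an adjusted p of 0.225 by limma and p = 0.0286 by an exact two-sided permutation test, the smallest that 4 against 4 arrays allow. Any gene without overlap has this exact p, so it adds nothing to the separation of the groups. The difference was -0.64 on slide 1 and -0.97 on slide 2. Dnmt3l was measured by a single probe.

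The other genes of this group did not pass the test either. For Dnmt3a the young arrays read between 1.55 and 1.93 and the old arrays between 1.82 and 2.04, with overlapping groups and a log2 fold change of 0.19 (95% interval -0.18 to 0.56, adjusted p = 0.998 by limma). Dnmt1 differed by -0.09 (-0.60 to 0.43) and Uhrf1 by -0.13 (-0.57 to 0.31). The 3 probes of Dnmt3b gave 0.06 to 0.34, all higher in old CMPs, and the 2 probes of Uhrf1 gave -0.13 and -0.11, and none of them passed the test. Across the 5 genes, 2 were higher and 3 lower, and the median was -0.09.

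Tet2 was lower in old CMPs at the 3 probes that carry its name, although none passed the test over all probes. Whether the third, from a separate cDNA, reads the full-length transcript was not tested. Tet2 is the TET enzyme best known from blood progenitors. At the first probe, the brightest, the young arrays read 2.72, 2.45, 1.91 and 2.03 and the old arrays 1.18, 1.65, 1.80 and 1.96. Only old replicate 5 reached into the young range, above young replicate 5. The log2 fold change was -0.63 ± 0.25 (SE; 95% interval -1.18 to -0.08; 1.55-fold lower), with an adjusted p of 0.649 by limma and an exact permutation p of 0.0571. At the second probe the values were 0.94, 0.84, 0.18 and 0.14 in young CMPs and -0.66, -0.11, -0.37 and 0.32 in old CMPs. Here again old replicate 5 alone lay inside the young range, and the log2 fold change was -0.73 (-1.35 to -0.11, adjusted p = 0.617 by limma, exact permutation p = 0.0857). At the third probe, young CMPs read -0.19, -0.54, -0.52 and -0.22 and old CMPs -1.68, -1.09, -0.54 and -1.26. Old replicate 4 met the lowest young array and the other old arrays were lower, and the log2 fold change was -0.77 (-1.33 to -0.22, adjusted p = 0.443 by limma, exact permutation p = 0.0571).

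All 3 Tet2 probes had an unadjusted limma p under 0.05 in the same direction. Among the 2191 genes with at least 3 tested probes, 15 (0.685%) were lower in old CMPs at every probe with such a p, and among all tested probes 2.73% were lower with such a p. This condition follows the pattern of Tet2 itself, and genes with more than 3 probes meet it less easily. The first 2 Tet2 probes, which sit close together, are not independent. The share is therefore no measure of how rare Tet2 is. At the first 2 probes the measured fold change was farther from 0 on slide 1 than on slide 2, which did not pass the test after adjustment. At the first probe the log2 fold change was -1.09 on slide 1 and -0.17 on slide 2, and at the second -1.40 and -0.06, with young replicates 3 and 4, both on slide 1, the highest of all arrays. At the third probe it was -0.74 and -0.80. A term for the difference between slides had an unadjusted limma p of 0.0621, 0.00789 and 0.920 for the 3 probes, and adjusted p of 0.967, 0.967 and 0.995. On slide 2 a difference of over 1.5-fold was thus seen at the third probe alone, the one whose transcript is uncertain.

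**Figure D2:**
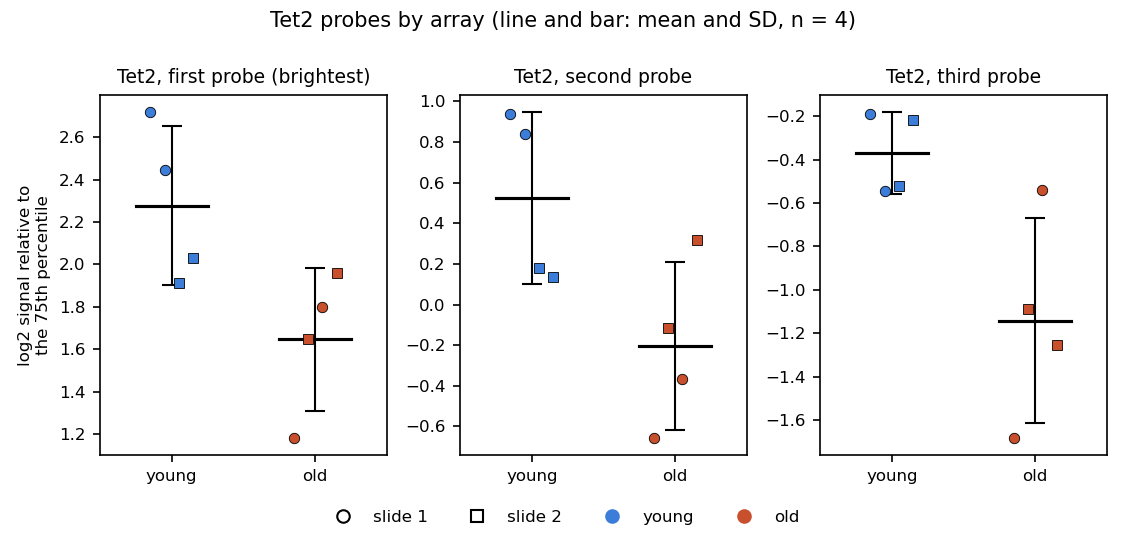
Log2 signal of the 3 Tet2 probes relative to the 75th percentile, by array: 4 young (blue) and 4 old (red) arrays, circles for slide 1 and squares for slide 2, with the mean and SD of each group. At the first and second probe the 2 young arrays of slide 1 are the highest, and at the third the young arrays of both slides lie between -0.54 and -0.19.

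The other genes of this group differed less. Idh2 is a mitochondrial enzyme that makes α-ketoglutarate, which TET enzymes need. It read 6.31, 6.50, 6.60 and 6.90 in young CMPs and 6.36, 6.10, 6.15 and 6.68 in old CMPs. The groups overlapped, with a log2 fold change of -0.25 (95% interval -0.71 to 0.20, adjusted p = 0.998 by limma). Its cytosolic relative Idh1 differed by 0.08 (-0.30 to 0.46). Tet1 differed by 0.04 and its 3 probes disagreed in sign (-0.03, 0.04 and 0.15). Tet3 differed by -0.07, and all 3 of its probes were lower in old CMPs (-0.40 to -0.01) with no unadjusted p under 0.05.

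All 4 core genes of PRC2 were lower in old CMPs, by amounts inside the spread between arrays. The log2 fold changes were -0.05 for Ezh2, -0.12 for Ezh1, -0.20 for Eed, which binds the trimethyl mark, and -0.44 for Suz12, a structural subunit. With the arrays scaled to their median Ezh2 was higher (0.07) and Ezh1 was at -0.00. Suz12 read 2.37, 2.39, 1.28 and 1.63 in young CMPs and 1.48, 1.78, 1.32 and 1.31 in old CMPs. The groups overlapped (95% interval -1.06 to 0.17, adjusted p = 0.980 by limma), and the high young values were both from slide 1. On slide 1 the difference was -0.98 and on slide 2 it was 0.09. The 4 tested Ezh1 probes differed in sign (-0.12, -0.06, 0.33 and -0.27).

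The accessory subunits of PRC2, which steer the complex to its targets, were at 0.09 for Jarid2, 0.03 for Phf1, -0.20 for Mtf2 and -0.20 for Phf19. None passed the test, and the interval of Phf1 was wide (-0.84 to 0.89). The difference of Mtf2, like that of Suz12, was negative on slide 1 and positive on slide 2 (-0.65 and 0.26).

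Among the 9 genes of PRC1, 3 were higher and 6 lower in old CMPs, with a median of -0.01. Bmi1, the Polycomb ring finger protein needed by blood stem cells, differed by -0.01 (95% interval -0.50 to 0.49), and the catalytic subunits Rnf2 and Ring1 by -0.01 (-0.41 to 0.38) and -0.10 (-0.66 to 0.47). The most positive values were those of Cbx8 and Pcgf2 and the most negative that of Cbx7, in an order that depended on the arrays and the background correction. With 1 array left out Cbx8 ranged from 0.15 to 0.57 and Pcgf2 from 0.14 to 0.50, and with normexp background correction Cbx7 was at -0.02 and Phc2, at -0.11, was the most negative.

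Cbx7 and Cbx8 are chromobox subunits that exchange for each other in PRC1. Cbx8 read -2.61, -1.37, -1.99 and -1.54 in young CMPs and -0.95, -1.66, -1.72 and -1.59 in old CMPs. The groups overlapped, and its log2 fold change was 0.40 (-0.27 to 1.07, adjusted p = 0.998 by limma). Cbx7 read -2.31, -2.75, -2.02 and -2.59 in young CMPs and -2.77, -2.53, -2.44 and -3.05 in old CMPs. Those groups overlapped too, with a log2 fold change of -0.28 (-0.78 to 0.22, adjusted p = 0.998 by limma). Pcgf2, the relative of Bmi1, read -1.80, -2.09, -1.98 and -1.96 in young CMPs and -1.05, -1.31, -2.14 and -1.998 in old CMPs. Only old replicates 2 and 3 were above the young range, and its log2 fold change was 0.33 (-0.25 to 0.91, adjusted p = 0.998 by limma).

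The remaining PRC1 genes were at -0.03 for Cbx2, 0.08 for Phc1 and -0.13 for Phc2. Phc1 and Phc2 each had a second tested probe of the opposite sign (-0.14 and 0.06).

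In the complex that removes ubiquitin from histone H2A, Asxl1 differed by -0.09 (95% interval -0.45 to 0.27) and the catalytic subunit Bap1 by 0.16 (-0.39 to 0.70). Asxl2 had a wide spread. It read 1.58, 0.93, -0.30 and 0.06 in young CMPs and -0.32, 0.08, 0.52 and 0.12 in old CMPs. The 2 high values were the young arrays of slide 1, and the other 6 arrays overlapped. The log2 fold change was -0.47 (-1.34 to 0.40, adjusted p = 0.998 by limma), with -1.15 on slide 1 and 0.22 on slide 2, and its second probe gave -0.33.

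None of the 4 Trithorax genes passed the test. Wdr5, Ash2l and Rbbp5, shared subunits of the H3K4 methyltransferase complexes, differed by 0.05, 0.11 and 0.07, and Men1, which ties menin-dependent complexes to their targets, by -0.11. All 4 intervals lay within 1.5-fold, the widest reaching from -0.41 to 0.55 in Rbbp5.

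Of the 2 demethylases, Kdm6b, which removes the PRC2 mark, read 1.53, 1.37, 1.48 and 1.61 in young CMPs and 1.97, 2.03, 1.65 and 1.48 in old CMPs. Old replicates 2, 3 and 4 were above all young arrays and old replicate 5 was not, and the log2 fold change was 0.28 (95% interval -0.13 to 0.70, adjusted p = 0.993 by limma). Kdm5b, which removes H3K4 methylation, differed by 0.10, and its 4 probes ranged from -0.28 to 0.10.

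Ehmt2, which methylates histone H3 at lysine 9, read 6.13, 6.39, 6.26 and 6.22 in young CMPs and 6.05, 6.12, 5.95 and 6.10 in old CMPs. The groups did not overlap, but the lowest young array (6.13) lay just above the highest old array (6.12). The log2 fold change was -0.19 (95% interval -0.54 to 0.16), with an unadjusted p of 0.250 and an adjusted p of 0.998 by limma. The exact permutation p of 0.0286 follows from the lack of overlap, for which the gene was listed, and is no separate support. With the arrays scaled to their median the difference was -0.07, and no regulator was then free of overlap. Setdb1, which methylates the same residue, differed by -0.04, and Dot1l, the H3K79 methyltransferase, by -0.02, and the 3 probes of Dot1l differed in sign (-0.12 to 0.09).

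**Figure D3:**
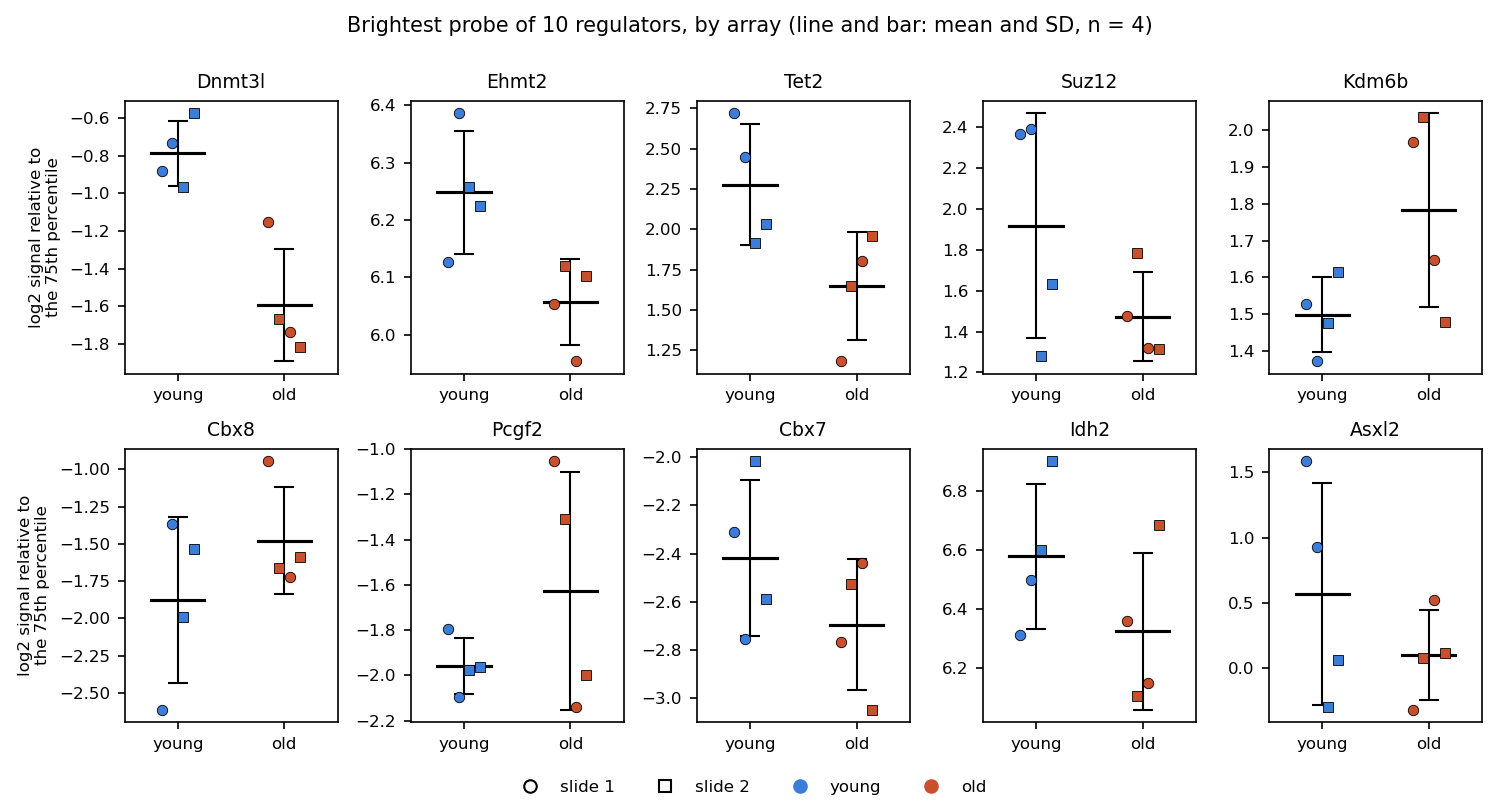
Log2 signal relative to the 75th percentile of the brightest probe of 10 regulators by array: 4 young (blue) and 4 old (red) arrays, circles for slide 1 and squares for slide 2, with mean and SD; each panel has its own axis. Old and young arrays are apart in Dnmt3l and Ehmt2 and overlap in the other 8 genes, and in Tet2, Suz12 and Asxl2 the 2 young arrays of slide 1 are the highest.

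The direction of the differences was compared between the slides. The difference had the same sign on both slides in 20 of the 39 genes (51.3%), against 49.7% of all tested genes. A term for the difference between slides had an adjusted p under 0.05 by limma in 0 of the 33479 tested probes and an unadjusted p under 0.05 in 1233. Of the 20 genes, 11 were lower on both slides, among them Dnmt3l, Tet2, Idh2, Eed, Cbx7 and Ehmt2, and 9 were higher on both, among them Dnmt3a, Kdm6b, Cbx8 and Pcgf2. With slide as a term in the fit, 0 of the 39 genes were called and the adjusted p of Dnmt3l was 0.286. Over all adjusted alternatives its adjusted p ranged from 0.0585 (array weights) to 0.962 (replicate block). Where a gene had 2 or more tested probes, the probes shared a sign in 10 of 16 genes.

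For 3 pairs of related genes the difference of 2 probes was read within each array, of which only the change between the ages can be interpreted. Ezh2 minus Ezh1 was -0.03, -0.08, -0.54 and -0.28 in young CMPs and -0.41, -0.14, -0.01 and -0.07 in old CMPs, a change of 0.07. Cbx8 minus Cbx7 was -0.30, 1.39, 0.03 and 1.05 in young CMPs and 1.82, 0.87, 0.72 and 1.46 in old CMPs, a change of 0.68. Dnmt1 minus Dnmt3a was 0.44, 1.06, 1.58 and 0.96 in young CMPs and 0.78, 1.13, 0.33 and 0.71 in old CMPs, a change of -0.27. In all 3 pairs the ages overlapped, and these differences were not tested.

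No gene of 4 further lists from the same systems was called. Of 25 other DNA methylation genes (readers of methylated DNA, Gadd45 proteins, methyl donor enzymes and others) 23 were tested and 0 called, 14 were higher and 9 lower, and the median was 0.03. Cxxc5, which binds unmethylated CpG, was between 1.85 and 2.28 in young CMPs and between 2.40 and 2.78 in old CMPs. It was the 1 gene of this list without overlap (log2 fold change 0.55, adjusted p = 0.441 by limma). The 2 largest differences, picked after the values were seen, were those of Gadd45g, a stress-induced gene, at 1.26 (adjusted p = 0.330 by limma) and of Hells, a chromatin remodeller needed for DNA methylation, at -0.67 (adjusted p = 0.477 by limma), both with overlapping groups.

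Of 28 other Polycomb genes, 26 were tested and 0 called, with a median of 0.02 and a range from -0.24 to 0.30. Of 31 other Trithorax and H3K4 or H3K79 genes, 0 were called, 26 were lower and 5 higher, with a median of -0.10 and a range from -0.43 (Kmt2d, an H3K4 methyltransferase) to 0.23. With the arrays scaled to their median, 12 of these 31 genes were lower and 19 higher. Of 17 other H3K9 genes, 0 were called, 11 were lower, and the median was -0.10, and 7 were lower with the other scaling. The 95% interval lay within 1.5-fold for 9, 8, 14 and 5 tested genes of the 4 lists, so that most of their genes were undecided at that size.

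**Figure D4:**
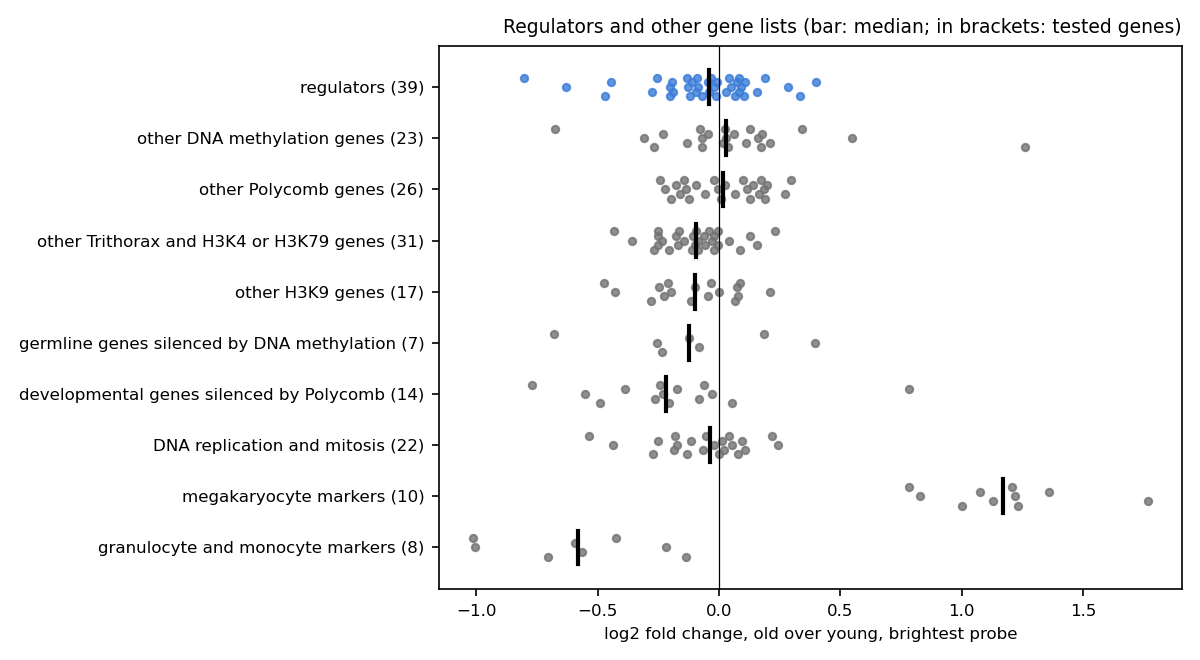
Log2 fold change, old over young, of the brightest probe of each tested gene in the regulators (blue) and 9 other gene lists (grey), with the median of each list as a black bar and the number of tested genes in brackets. The regulators and the 4 lists of related chromatin genes centre near 0 (medians -0.10 to 0.03), while the medians of the megakaryocyte and of the granulocyte and monocyte markers are at 1.17 and -0.58.

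Genes that these systems are known to keep silent were detected in like numbers at both ages. Of 21 germline genes known to depend on DNA methylation for their silencing, 5 to 7 were well above background on a young array and 5 to 7 on an old one. Of these genes 4 (Taf7l, Brdt, Tuba3a and Piwil2) were detected on all 8 arrays and 11 on none. Of 33 developmental genes known as Polycomb targets, 12 to 19 were detected on a young array and 14 or 15 on an old one, 9 on all arrays and 9 on none. No gene of either list was detected on all arrays of one age and none of the other. None of the 7 germline and 14 developmental genes that could be tested was called, and none had an unadjusted p under 0.05 by limma. Lower in old CMPs were 5 of the 7 germline genes (median -0.13) and 12 of the 14 developmental genes (median -0.22), where 52.4% of all tested genes were lower. With the arrays scaled to their median 4 and 9 were lower, and with normexp background correction 3 and 9. Cdkn2a and Cdkn2b, cell cycle inhibitors silenced by Polycomb, had no probe that was well above background on 4 arrays and were not tested. Cdkn2a was detected on 1 young and 0 old arrays and Cdkn2b on 1 young and 3 old arrays, counting either of its 2 probes.

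Most of the regulators had a CpG-rich promoter window, a feature that their choice did not use. Promoter windows of 300 bases, 250 before and 50 after a transcript start, were at hand from RefSeq (GRCm38.p6) for 36 of the 39 genes and not for Ash2l, Cbx2 and Kdm6b. In 30 of the 36 genes (83.3%) a window was rich in CpG, with at least 50% G and C and an observed to expected CpG ratio of at least 0.6. Over all 27025 genes with a window the share was 36.0%, but these include genes not tested in CMPs, while all regulators were tested. Counted by window, 36 of 51 were CpG-rich for the regulators, against 33.5% of all 32851 windows. The median number of CpG in a window was 23 for the regulators and 7 over all windows, CG being counted on the printed strand. The 6 genes without such a window were Dnmt3l, Idh2, Pcgf2, Phc1, Rbbp5 and Tet3.

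The 2 genes with the largest differences lay at opposite ends of this range, and the 250 bases before their starts are shown for that contrast, with each CG in capitals. The Tet2 stretch holds 51 CpG, and the Dnmt3l stretch, before the most upstream of its 3 listed starts, holds 5. These are letters of the reference, and no methylation was measured in these cells.
Tet2 (GRCm38.p6, chr3:133544391-133544640, minus strand): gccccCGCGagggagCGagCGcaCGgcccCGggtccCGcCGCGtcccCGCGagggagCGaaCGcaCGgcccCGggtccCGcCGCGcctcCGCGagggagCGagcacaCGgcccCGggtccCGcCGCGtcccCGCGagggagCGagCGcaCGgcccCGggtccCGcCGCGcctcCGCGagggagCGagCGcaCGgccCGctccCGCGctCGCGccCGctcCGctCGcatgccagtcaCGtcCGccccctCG
Dnmt3l (GRCm38.p6, chr10:78042037-78042286, plus strand): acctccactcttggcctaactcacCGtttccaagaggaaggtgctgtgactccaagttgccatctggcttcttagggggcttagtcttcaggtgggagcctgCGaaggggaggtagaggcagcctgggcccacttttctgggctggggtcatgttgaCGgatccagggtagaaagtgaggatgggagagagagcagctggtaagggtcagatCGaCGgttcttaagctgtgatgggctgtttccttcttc

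Marker genes of other cell types were read in the same samples, and 1 of them was called. This was Gp9, a platelet glycoprotein of the megakaryocyte list (log2 fold change 1.21, adjusted p = 0.0327 by limma). All 10 megakaryocyte markers were higher in old CMPs and 9 did not overlap, led by Ppbp (1.77), Pf4 (1.36), Gp5 (1.23) and Itga2b (1.22). Of all 23161 tested genes, 740 were higher and 385 lower without overlap, and 58 were called. The sum of the linear signals of the megakaryocyte markers, relative to the 75th percentile, was 80.8 to 168.7 on young arrays and 245.4 to 335.6 on old ones. The brightest probes weigh most in such a sum. Of the 8 granulocyte and monocyte markers 0 were called and all 8 were lower. The 4 without overlap were Prtn3 (-1.01), Irf8 (-0.71), Mpo (-0.59) and Csf1r (-0.57). The sum of the linear signals of these 8 markers was 1035 to 1385 on young arrays and 829.7 to 904.9 on old ones.

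The other marker lists had no called gene. Of 7 tested stem cell markers 5 were higher (median 0.44), with Robo4 (0.71) and Meis1 (0.65) free of overlap. All 4 mast cell and basophil markers were higher (median 0.53), with Cpa3 (0.86) free of overlap, and so were 3 of 4 tested endothelial markers (median 0.70), with Tie1 (1.01) and Emcn (0.96) free of overlap. No tested erythroid, lymphoid or neutrophil marker was free of overlap, and these lists had medians of -0.07, -0.14 and -0.17.

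Dnmt1, Uhrf1 and Ezh2 are tied to DNA replication in dividing cells. The 22 genes of DNA replication and mitosis had a median of -0.04, with 12 lower and 0 called. With quantile normalization 17 were lower, and with the arrays scaled to their median 8 were lower and 14 higher. Aurkb (-0.44) and Cdt1 (-0.25), a mitotic kinase and a replication licensing factor, were lower without overlap. The part of these cell types and of cell division in the differences of Tet2 and Dnmt3l was not tested.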

How the data were processed

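RNA of CMPs sorted from 4 young and 4 old samples was hybridised to 1-colour arrays of 62976 spots. The authors scanned them and read the images with Agilent Feature Extraction 10.7.3.1. The deposited array files give each spot's background-corrected intensity on a linear scale. A second deposited file, made with GeneSpring 13 per the file headers, holds the authors' own log2 values, which their methods describe as percentile-shifted and baseline-centred. It served as an alternative.

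Here log2(intensity) minus the array's 75th percentile over 59305 spots that are not controls was computed. Outlier spots, 141 to 230 per array, were dropped, and replicate spots averaged. Probes with a signal well above background on 4 or more arrays were tested (33479 probes, 23161 gene names). Groups were compared with limma 3.58.1 (lmFit, eBayes; R 4.3.3) and Benjamini-Hochberg adjustment over all tested probes, and single genes also with an exact permutation test over arrays. A gene was represented by its brightest tested probe. The fit was tested on simulated data, where it recovered 124 of 200 planted changes (62%) and made 11 false calls. The 39 genes and the lists were chosen with earlier results of these data known.

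Fold changes with tests and values per array were given for called genes, then genes without overlap, then those of smallest p up to 10 genes. Other lists were given by counts and median, with members that were called, or without overlap at 1.5-fold or more (up to 5 a list). Cxxc5, Cdt1, Aurkb and Csf1r, without overlap below that fold, and Flt3, Gadd45g, Hells and Kmt2d were named after their values were seen. Promoter and gene names came from RefSeq (GRCm38.p6), and probe coordinates from the array files (mm9), with no annotation of that build used here. The number of arrays limits the precision. Other background corrections, scalings, filters, tests, blocks and left-out arrays were tried.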

Additional observations from a re-analysis of the deposited data

How the results depend on the processing

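The call of 0 of the 39 genes held under every alternative that adjusted its p-values, and Dnmt3l and Tet2 were lower in old CMPs in all alternatives, between -0.97 and -0.57 for Dnmt3l and between -1.09 and -0.17 for the first Tet2 probe. The methods' t-test without adjustment and limma without adjustment each called 2 of the 39 genes, and 1051 and 1592 of the 33479 tested probes. The adjusted t-test called 0 probes, against 64 in the fit reported. Genes of the 39 without overlap numbered 1 with normexp background correction, 0 with arrays scaled to their median and 1 in the authors' table. They numbered 3 with quantile normalization (Dnmt3l, Tet2 and Ehmt2) and 3 with the mean of a gene's tested probes. With 1 array left out they numbered 2 to 5, but a smaller group is free of overlap more easily. The shares over all genes under these settings were not computed. The probes called numbered 104 with normexp, 28 with no filter on dim probes, 40 and 32 with a signal well above background on all 8 or at least 1 array, 101 with an intensity trend and robust variances, 302 with array weights, 39 with slide as a block, and 27 to 43 with 1 array left out. Suz12 and Asxl2 were higher in old CMPs within slide 2, by 0.0907 and 0.218 (log2); the cause was not tested. The term for a difference between slides was added after the data were seen.

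No label says that same-numbered young and old samples are paired. Their deviations correlated at -0.09, -0.14 and 0.15, inside the range of the other pairs (-0.26 to 0.37). So few pairs cannot settle whether the numbers pair the samples. With the replicate number as a block 13 probes and 0 of the 39 genes were called.

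With 4 arrays a group, the median 95% interval of the 39 genes reached 0.48 to either side on the log2 scale (0.53 over all tested genes), so changes well under 1.5-fold are not resolved.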
